A study of Mus musculus with 6 samples.

Results

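Glycolysis and glucose uptake were followed through 10 genes chosen by function: the glucose transporter Slc2a1, the hexokinases Hk1 and Hk2, the phosphofructokinases Pfkl and Pfkp, the aldolase Aldoa, the phosphoglycerate kinase Pgk1, the pyruvate kinase Pkm, the lactate dehydrogenase Ldha and the pyruvate dehydrogenase kinase Pdk1. They are 10 of the 54232 genes in the count table, and all 10 were tested. RNA-Seq was compared between primary mouse uterine stromal cells (mUSCs) of 3 WT and 3 Pbrm1 cKO libraries, to see what the loss of PBRM1, a subunit of the PBAF form of the SWI/SNF chromatin remodeling complex, changes on D4. Controls carry the label WT, and the study names the control mice for these cells as Pbrm1 fl/fl. The Pbrm1 cKO animals carry the same floxed alleles together with PR-IRES-cre, which deletes Pbrm1 in every cell type that expresses the progesterone receptor and not in stroma alone. Females aged 8 to 12 weeks were used on D4 of pseudopregnancy (the labels write day 4 of pregnancy), 5 to 10 uterine horns were digested for a preparation, and the cells were plated for 4 h and then for 2 h in medium with 10% FBS before RNA was taken, the same for all 6 libraries.

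Glucose enters the cell through facilitative transporters of the Slc2a family and is trapped by a hexokinase as glucose 6-phosphate, from which glycolysis, the pentose phosphate pathway and glycogen synthesis all branch. Phosphofructokinase commits the sugar to glycolysis, pyruvate kinase makes pyruvate, lactate dehydrogenase turns pyruvate into lactate, and pyruvate dehydrogenase kinases shut the entry of pyruvate into the mitochondrial TCA cycle. Uterine stromal cells are known to raise glucose uptake and lactate output when they decidualize after implantation, and most of these genes are known targets of the hypoxia-inducible factors and of MYC.

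Hk2 and Hk1, both of which catalyse the first step, were higher in Pbrm1 cKO mUSCs, and the difference of the other 8 genes did not pass the test. These 2 of 10 genes stand against 31.1% of the 17471 genes tested that passed the same test, 15.9% higher and 15.2% lower. Without WT replicate 1 there were 4 of 10, beside 34.0% of all genes, so the share of members called lay below that of all genes with all 6 libraries and above it without that one. The median of the members' log2 fold changes was 0.02 and the median of their absolute values was 0.12, beside 0.00 and 0.37 over all genes tested and 0.01 and 0.29 over the genes with a mean count of at least 50. Normalised counts of WT and Pbrm1 cKO libraries did not overlap for 4 members, Hk1, Hk2, Aldoa and Pgk1, and did not overlap for 48.6% of all genes tested. Here and below a fold change is Pbrm1 cKO over WT, the test is the Wald test of DESeq2 with Benjamini-Hochberg adjustment over all genes and a threshold of 0.05, and levels are read counts divided by the library's size factor.

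The libraries held 13253575 to 18338667 counted reads, and the members with the fewest reads still had over 1000 in each library. Pbrm1 itself, on chromosome 14, had 1354, 1385 and 1677 normalised counts in WT against 397, 459 and 451 in Pbrm1 cKO, which is 29.6% of the WT mean (log2 fold change -1.76, SE 0.13, DESeq2 adjusted p = 5.19e-40). The stromal genes Vim, Col1a1 and Pdgfra were abundant in all 6 libraries. All 16 leukocyte markers were higher in the Pbrm1 cKO libraries, with a summed level of 4875 to 10904 in WT and 45487 to 47038 in Pbrm1 cKO, none at 0, while 4 of the 15 epithelial markers tested were higher (26.7% called), with sums of 2051 to 3831 and of 4176 to 4381. Lyz2, the lysozyme of myeloid cells, and Cd74, the invariant chain of antigen-presenting cells, rose by 2.25 and 3.05 on the log2 scale (DESeq2 adjusted p = 5.92e-08 and 2.30e-103). Erythroid marker sums were 2.14 to 8.65 in WT and 136 to 260 in Pbrm1 cKO, with Hbb-bt and Alas2 at 0 in all WT libraries. Of 14 stromal markers 8 were lower and 1 was higher (64.3% called), of 9 tested smooth muscle markers 4 were lower (44.4%), and of 10 endothelial markers 3 were lower and 1 was higher (40.0%). The part of these cell types in the differences below was not tested. In such bulk libraries a larger number of cells of a type cannot be told apart from more RNA in each cell. Nothing in the labels says whether the 3 libraries of a group come from separate animals, though a figure legend of the study calls the 3 replicates biological. The p-values measure the spread between these libraries.

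WT replicate 1 stood apart from the other WT libraries for most members, which bears on all results below. It held the highest WT level of 8 of the 10 members, the lowest of Hk2 and the middle one of Hk1. The WT libraries spread by 1.18- to 1.53-fold between the highest and the lowest, and the Pbrm1 cKO libraries by 1.01- to 1.18-fold, the narrower range for each of the 10 members. WT replicate 1 also had the lowest leukocyte sum of the 6 libraries (4875) and a lower endothelial sum than the other WT libraries (3273 against 6282 and 6424). Its epithelial sum was lower too (2051 against 3831 and 3606) and its stromal sum higher (131242 against 113650 and 113919).

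**Figure D1:**
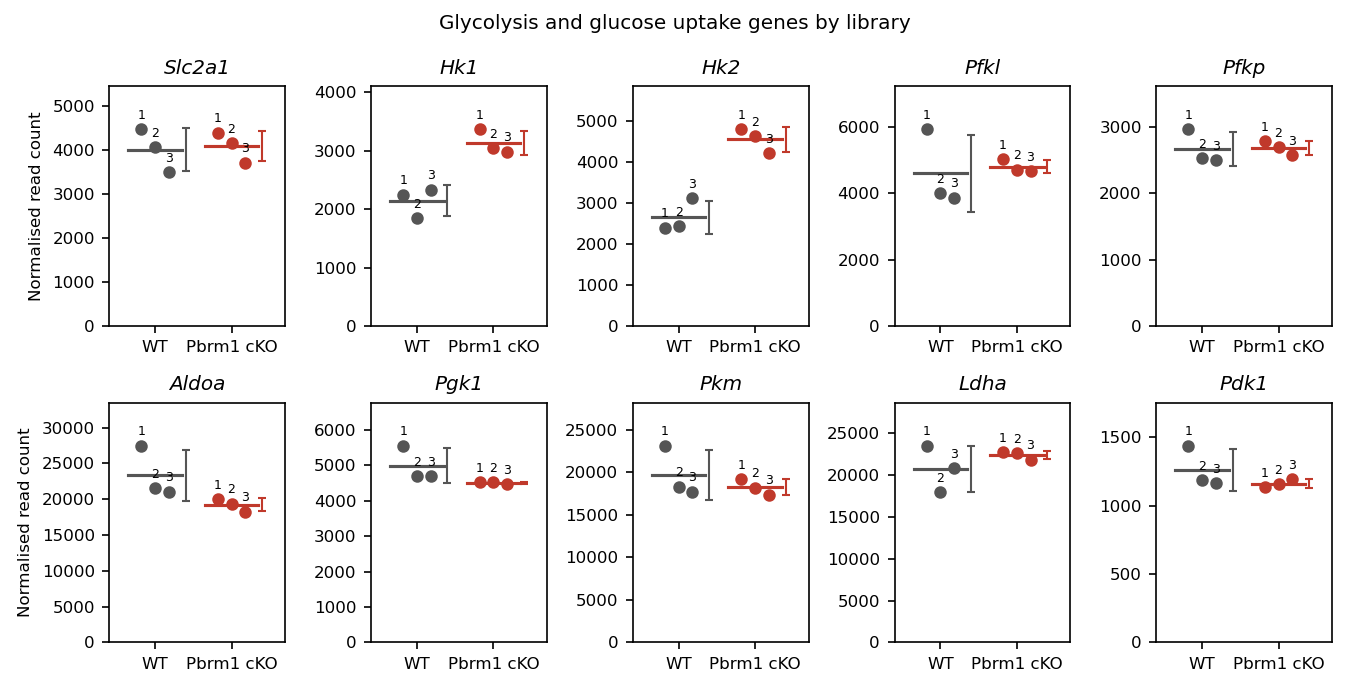
Normalised read counts (vertical axes, starting at 0) of the 10 glycolysis and glucose uptake genes in the 3 WT (grey) and 3 Pbrm1 cKO (red) libraries. Points are libraries with their replicate number, horizontal lines are group means and bars at the side are ± 1 SD. The groups do not overlap for Hk1, Hk2, Aldoa and Pgk1, and WT replicate 1 is the highest WT point of 8 genes.

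The sequences just upstream of the start sites were read first, because HIF and MYC, well known activators of these genes, bind DNA through ACGTG or GCGTG (HIF) and through the palindrome CACGTG (MYC), which contains ACGTG. RefSeq windows of 250 bases ending at an annotated start (build GRCm38.p6) were found for all 10 members, 16 windows in all, and searched on both strands (ACGTG reads CACGT and GCGTG reads CACGC on the other strand). In the window nearest the principal transcript, ACGTG occurred in 4 of the 10 members (Slc2a1, Hk2, Aldoa and Pgk1), beside 16.6% of all 32851 windows in the genome, and GCGTG in 5 (Slc2a1, Pfkl, Pfkp, Ldha and Pdk1), beside 28.2%. CACGTG occurred in none of these 10 windows and in 6.0% of all windows. Of the other windows, 1 of Aldoa, which overlaps its nearest window and shares its match, 1 of Pkm and 1 of Ldha hold ACGTG, and the second Hk1 window holds 3 GCGTG. Both genes that rose are shown, then Pgk1 and the second Ldha window, which have the most ACGTG matches among the genes that did not pass the test, with ACGTG or its reverse in capitals. The Hk2 window is chr6:82774455-82774704 on the minus strand, that of Hk1 is the one next to the start of its principal transcript, chr10:62379909-62380158 on the minus strand, that of Pgk1 is chrX:106186850-106187099 on the plus strand, and that of Ldha, not the one nearest its principal transcript, is chr7:46845554-46845803 on the plus strand.
Hk2: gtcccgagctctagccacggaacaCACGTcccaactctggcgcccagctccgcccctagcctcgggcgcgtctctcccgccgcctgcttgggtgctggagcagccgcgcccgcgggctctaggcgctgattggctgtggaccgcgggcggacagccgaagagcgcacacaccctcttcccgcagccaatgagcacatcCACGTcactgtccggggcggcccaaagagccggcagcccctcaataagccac
Hk1: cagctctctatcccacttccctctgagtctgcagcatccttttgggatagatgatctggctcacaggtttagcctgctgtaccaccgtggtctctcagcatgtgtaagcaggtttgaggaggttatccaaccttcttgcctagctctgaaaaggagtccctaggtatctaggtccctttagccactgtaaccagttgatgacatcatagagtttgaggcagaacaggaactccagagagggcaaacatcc
Pgk1: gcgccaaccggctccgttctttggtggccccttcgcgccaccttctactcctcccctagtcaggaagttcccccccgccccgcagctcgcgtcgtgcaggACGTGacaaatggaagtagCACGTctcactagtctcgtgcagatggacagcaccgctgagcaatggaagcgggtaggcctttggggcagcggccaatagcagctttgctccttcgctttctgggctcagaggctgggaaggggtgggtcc
Ldha: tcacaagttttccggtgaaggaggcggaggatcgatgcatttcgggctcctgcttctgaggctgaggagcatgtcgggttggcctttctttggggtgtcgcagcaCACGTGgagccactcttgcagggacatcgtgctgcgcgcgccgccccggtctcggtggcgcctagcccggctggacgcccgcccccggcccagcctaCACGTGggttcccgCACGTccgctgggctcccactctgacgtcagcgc
The Hk2 window holds 2 matches and the Hk1 window none. Pgk1 has 2 matches, and the Ldha window has 2 palindromes and 1 further match, while the Ldha window nearest the principal transcript has no ACGTG and 1 GCGTG. A match of these letters is a description of the sequence and not a bound site.

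Slc2a1 (GLUT1), the main transporter of glucose into most dividing cells, lies at chr4:119108711-119137983. It had 4470, 4061 and 3494 normalised counts in WT against 4392, 4151 and 3714 in Pbrm1 cKO. The groups overlapped over nearly their whole range (log2 fold change 0.03, SE 0.12, DESeq2 adjusted p = 0.903), and the 95% interval, -0.21 to 0.26, leaves room for a change of a modest size in either direction.

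Other transporters of the family did differ. Of the 11 other glucose transporter genes 8 could be tested, 5 were lower in Pbrm1 cKO and none was higher, and the median log2 fold change of the 8 was -0.90. These 62.5% of the tested transporters stand beside 31.1% of all genes, and with limma 1 transporter was also higher. The 5 include Slc2a8, with a mean count of 26.2 and groups that overlapped (log2 fold change -1.17, DESeq2 adjusted p = 0.046). Slc2a8 lost its call in 11 of the 17 alternative settings. With 1 library left out in turn 4 to 5 transporters were called. Slc2a3 (GLUT3), the high-affinity transporter, had 2005, 1579 and 1477 counts in WT against 939, 950 and 903 in Pbrm1 cKO (log2 fold change -0.86, SE 0.13, DESeq2 adjusted p = 1.63e-09). Slc2a10 fell by 0.95 on the log2 scale (DESeq2 adjusted p = 1.54e-07), Slc2a6 by 1.80 (adjusted p = 1.41e-08) and Slc2a13, which carries myo-inositol with protons, by 1.58 (adjusted p = 1.90e-07). Slc2a12 had 115, 128 and 96 counts in WT against 146, 149 and 146 in Pbrm1 cKO, and its difference did not pass the test (adjusted p = 0.134).

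Per kilobase of exon, Slc2a1 made up 74.0%, 75.2% and 74.0% of the summed level of the Slc2a genes in the WT libraries and 84.4%, 83.95% and 82.8% in those of Pbrm1 cKO. Slc2a3 went from 16.1%, 14.2% and 15.1% to 8.74%, 9.30% and 9.74%. The shares of either gene did not overlap between the groups, and the summed level of the family was 1537 ± 189 (SD, n = 3) in WT against 1391 ± 104 in Pbrm1 cKO, which overlapped. With the length of the principal transcript the mean share of Slc2a1 was 66.8% in WT and 78.5% in Pbrm1 cKO. That of Slc2a3 was then 23.1% and 14.8%, and neither share overlapped between the groups. Shares and sums are given as descriptions, since an exact permutation test of 3 libraries against 3 cannot go below p = 0.10.

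Hexokinase 2, the inducible isozyme, showed the largest change of the 10 members. Hk2 lies at chr6:82725025-82774454 and had 2399, 2438 and 3122 normalised counts in WT against 4798, 4630 and 4219 in Pbrm1 cKO. Every Pbrm1 cKO library was above every WT library (1.72-fold, log2 fold change 0.78, SE 0.12, DESeq2 adjusted p = 7.48e-09). With 1 library left out in turn the log2 fold change ran from 0.71 to 0.91, and it passed the threshold each time.

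Hexokinase 1, the housekeeping isozyme, is encoded at chr10:62268855-62379908. Its levels were 2248, 1840 and 2335 in WT against 3368, 3044 and 2981 in Pbrm1 cKO. The groups were again apart, by less than for Hk2 (1.46-fold, log2 fold change 0.55, SE 0.12, DESeq2 adjusted p = 2.77e-05), and leaving out any 1 library gave 0.45 to 0.61. No 50-base window of the principal transcript of Hk1 or Hk2 was shared with another annotated transcript, and near-identical sequences and the other exons were not examined.

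Hk3, the isozyme typical of myeloid cells, had 57, 131 and 128 counts in WT against 472, 380 and 444 in Pbrm1 cKO (log2 fold change 2.04, SE 0.26, DESeq2 adjusted p = 5.66e-14). It is lowest in WT replicate 1, as is the leukocyte sum. Summed per kilobase of exon over Hk1, Hk2, Hk3 and Hkdc1, hexokinase stood at 681, 661 and 831.5 in WT against 1328, 1236 and 1178 in Pbrm1 cKO, 172% of the WT mean.

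Shares of the isozymes were compared per kilobase of exon. Hk2 made up 59.0%, 61.8% and 62.9% of the hexokinase level in WT and 60.5%, 62.75% and 60.0% in Pbrm1 cKO, shares that overlapped. Hk1 went from 38.7%, 32.6% and 32.9% to 29.7%, 28.9% and 29.7%, and Hk3 from 2.26%, 5.38% and 4.17% to 9.65%, 8.34% and 10.2%. Of these, the Hk1 and Hk3 shares did not overlap between the groups. With the length of the principal transcript Hk1 had the larger mean share in WT (52.0% against 44.9% for Hk2) and Hk2 in Pbrm1 cKO (46.5% against 45.8%), so the order of these isozymes depends on the length used. The leukocyte markers differed between the same libraries by a larger factor than Hk1 or Hk2, and the part that leukocytes have in the hexokinase difference was not tested.

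**Figure D2:**
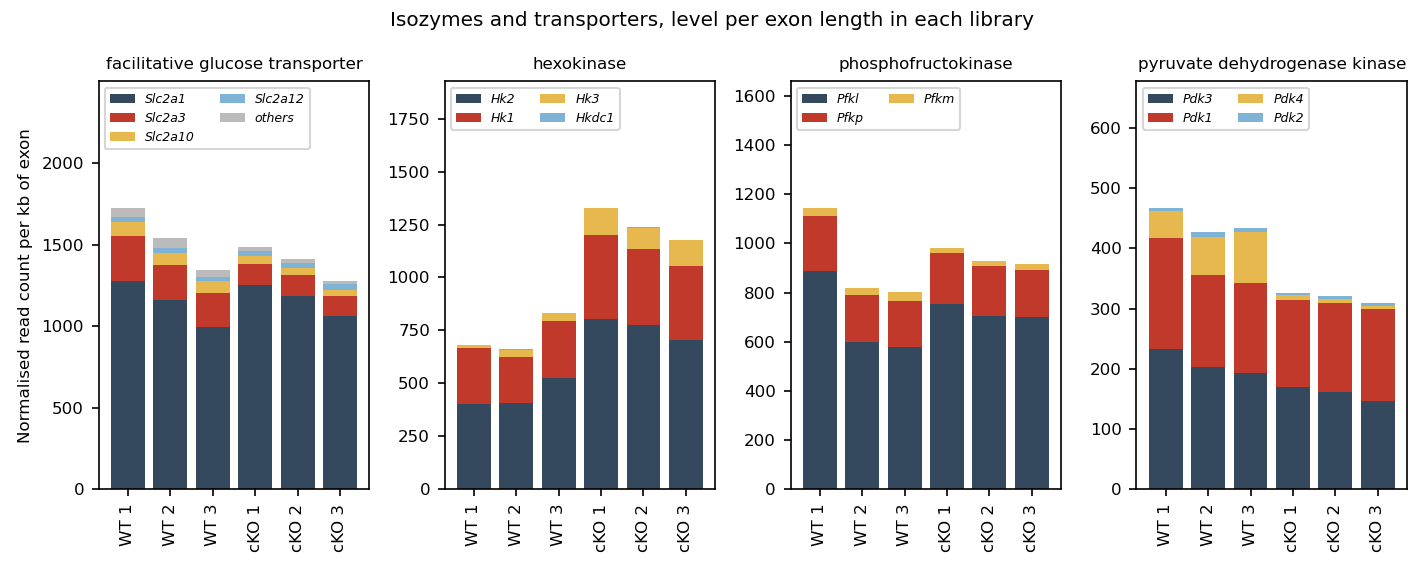
Levels as normalised read count per kilobase of exon (vertical axes, starting at 0), stacked by gene for the glucose transporters, hexokinases, phosphofructokinases and pyruvate dehydrogenase kinases in each of the 6 libraries. The hexokinase stacks of the Pbrm1 cKO libraries, 1178 to 1328, are all above the WT stacks, 661 to 831.5, whereas the pyruvate dehydrogenase kinase stacks are lower.

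Pfkl, the liver-type phosphofructokinase, at chr10:77986947-78010083, had 5931, 4006 and 3870 counts in WT against 5026, 4708 and 4668 in Pbrm1 cKO. The spread lay in WT, where replicate 1 was 1.51 times the mean of the other 2 libraries (log2 fold change 0.06, SE 0.16, DESeq2 adjusted p = 0.826). Without WT replicate 1 the log2 fold change was 0.28 (adjusted p = 0.0018), so Pfkl passed the test once that library was left out.

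Pfkp, the platelet-type isozyme, at chr13:6579768-6648777, had 2967, 2533 and 2500 counts in WT against 2788, 2697 and 2577 in Pbrm1 cKO. Its groups overlapped (log2 fold change 0.01, DESeq2 adjusted p = 0.954, 95% interval -0.19 to 0.21). The overlapping gene Pitrm1 on the other strand shares 17.1% of the 50-base windows of Pfkp, although reads were counted with strand. The muscle-type Pfkm, at a far lower level of 114, 99 and 125 counts in WT, had 68, 70 and 86 in Pbrm1 cKO and fell by 0.60 (DESeq2 adjusted p = 0.0324). Pfkm lost its call in 7 of the 17 alternative settings, among them without WT replicate 1 or 3 or Pbrm1 cKO replicate 1 or 2 (adjusted p = 0.0731 to 0.165).

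Aldoa, which splits fructose 1,6-bisphosphate, at chr7:126795234-126800751, was the most abundant member in WT. Its normalised counts were 27477, 21507 and 21053 in WT against 20039, 19371 and 18279 in Pbrm1 cKO. The groups did not overlap and Pbrm1 cKO was at 82.4% of WT, yet the difference did not pass (log2 fold change -0.28, SE 0.12, DESeq2 adjusted p = 0.0591). It passed when WT replicate 2 (log2 fold change -0.34, adjusted p = 0.0466) or WT replicate 3 (-0.35, adjusted p = 0.0075) was left out, and shrank to -0.15 (adjusted p = 0.121) without WT replicate 1. It also passed with limma (adjusted p = 0.0488) and when genes of low counts were removed before the fit (adjusted p = 0.0423). A second annotated gene of the same name had at most 7 counts in a library and was left aside.

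Between aldolase and pyruvate kinase, Pgk1, the first enzyme of glycolysis to make ATP, at chrX:106187100-106203699, had 5554, 4697 and 4699 counts in WT against 4520, 4522 and 4462 in Pbrm1 cKO. The Pbrm1 cKO libraries were nearly identical and all below WT (log2 fold change -0.15, SE 0.10, DESeq2 adjusted p = 0.274). Without WT replicate 1 the log2 fold change was -0.06 (adjusted p = 0.573). Of its 50-base windows 68.0% also occur in other annotated transcripts, mostly the processed pseudogenes Pgk1-rs7 and Gm5537, which were counted at most 2 times in a library.

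Pkm, at chr9:59656368-59679375, had 23131, 18302 and 17718 counts in WT against 19204, 18220 and 17373 in Pbrm1 cKO, and the groups overlapped (log2 fold change -0.11, SE 0.12, DESeq2 adjusted p = 0.547). Counts per gene do not tell its M1 and M2 splice forms apart. Without WT replicate 1 the sign turned, to 0.02. The pseudogene Gm6560 carries 25.9% of the windows of Pkm and was counted 1456 ± 218 times (normalised, SD, n = 3) in WT against 1374 ± 18.2 times in Pbrm1 cKO.

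Ldha, at chr7:46841475-46855627, had 23527, 17983 and 20822 counts in WT against 22779, 22641 and 21845 in Pbrm1 cKO. The Pbrm1 cKO libraries lay inside the WT range (log2 fold change 0.11, SE 0.11, DESeq2 adjusted p = 0.514). Without WT replicate 1 the log2 fold change was 0.21 (adjusted p = 0.0465), so Ldha too passed the test once that library was left out, and without WT replicate 2 it was 0.01 (adjusted p = 0.951). Ldhb, the other main subunit, was at 0.27% of the lactate dehydrogenase level per kilobase in WT.

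Pdk1, which inhibits pyruvate dehydrogenase, at chr2:71873224-71903858, had 1437, 1186 and 1161 counts in WT against 1134, 1156 and 1193 in Pbrm1 cKO. WT replicates 2 and 3 lay within the range of Pbrm1 cKO (log2 fold change -0.12, SE 0.12, DESeq2 adjusted p = 0.489), and without WT replicate 1 the log2 fold change was -0.02 (adjusted p = 0.922). Its paralogue Pdk4, which is raised by fasting and by glucocorticoids, had 154, 225 and 299 counts in WT against 24, 21 and 20 in Pbrm1 cKO. Pdk4 was thus 10.6-fold lower (log2 fold change -3.41, SE 0.31, DESeq2 adjusted p = 1.67e-26).

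Pdk3, another of these kinases, had 596, 519 and 495 counts in WT against 434, 414 and 373 in Pbrm1 cKO (log2 fold change -0.40, SE 0.13, DESeq2 adjusted p = 0.0115). Pdk3 lost its call in 5 of the 17 alternative settings, among them without WT replicate 1 or Pbrm1 cKO replicate 2 or 3 (adjusted p = 0.0518 to 0.103). Pdk1 made up 39.5%, 35.7% and 34.4% of the summed kinase level in WT and 44.7%, 46.4% and 49.4% in Pbrm1 cKO, while Pdk4 went from 9.38%, 15.0% and 19.7% to 2.07%, 1.85% and 1.81%. The summed level was 443 ± 21.5 per kilobase (SD, n = 3) in WT against 319 ± 7.96 in Pbrm1 cKO.

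**Figure D3:**
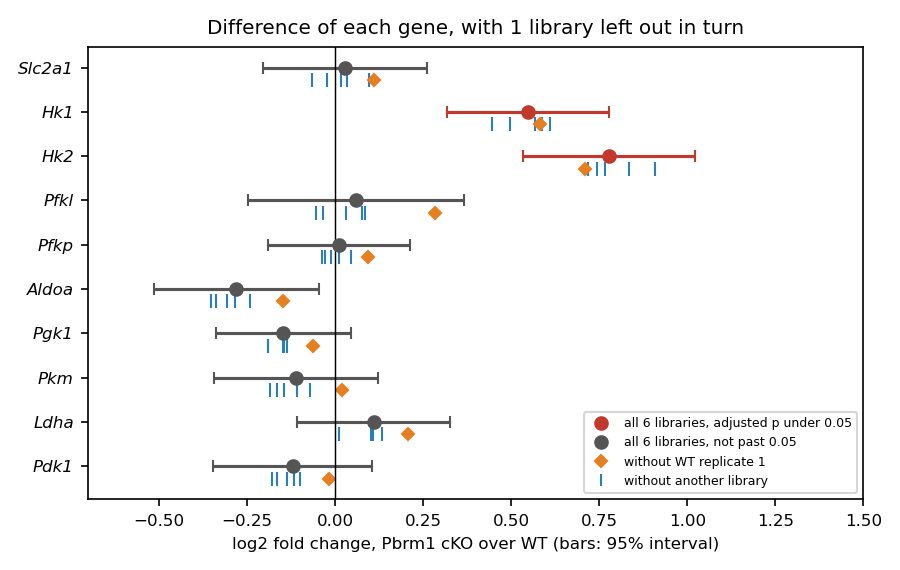
Log2 fold change of Pbrm1 cKO over WT for the 10 genes (horizontal axis), as circles with 95% intervals in the fit of all 6 libraries and as smaller marks with 1 library left out in turn. Hk1 and Hk2 stay above 0 throughout, from 0.45 to 0.91, while leaving out WT replicate 1 (diamonds) moves Pfkl to 0.28 and Pkm to 0.02.

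The levels of the members per kilobase of exon spanned 49.5-fold in WT. The order in WT was Aldoa (8020 ± 1232 normalised counts per kilobase, SD, n = 3), Ldha (6277 ± 838), Pkm (3943 ± 594), Pgk1 (2221 ± 220), Slc2a1 (1143 ± 140), Pfkl (690 ± 173), Hk2 (444 ± 68.1), Hk1 (251 ± 31.0), Pfkp (199 ± 19.5) and Pdk1 (162 ± 19.6). The ranges of neighbours in this order did not overlap in WT, apart from Hk1 and Pfkp. In Pbrm1 cKO Ldha (6774 ± 152) and Aldoa (6606 ± 305) overlapped, as did Hk2 (762 ± 49.9) and Pfkl (719 ± 29.4). The order depends on the length used. With the length of the principal transcript, Hk1 (556 ± 68.6) and Pfkp (643 ± 62.9) came before Hk2 (481 ± 73.8) in WT, and in Pbrm1 cKO the mean of Aldoa (12727) was above that of Ldha (12696) and Pfkl (1287) above Hk2 (825). Neither length allows for 50-base windows shared with other transcripts, which were 68.0% for Pgk1, 34.4% for Pkm and 17.1% for Ldha. They were 13.9% for Aldoa and 0% for Hk1 and Hk2. Whether the order holds with such windows set aside was not tested.

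Members were compared with genes around them in metabolism, in 10 lists of 129 other genes, of which 115 were tested, 22 were higher and 35 were lower in Pbrm1 cKO. Each count from all 6 libraries is to be read against the 31.1% of all genes tested that passed, or the 40.9% of genes with a mean count of at least 50. Leaving out Pbrm1 cKO replicate 1, 2 or 3 gave 24.3%, 24.0% and 27.2% of all genes tested. Leaving out WT replicate 1, 2 or 3 gave 34.0%, 26.3% and 34.2%. Among the other glycolytic enzymes, 14 of 19 were tested, 3 were higher and 5 lower (57.1% called). Tpi1, the triose phosphate isomerase, had 11736, 8894 and 8307 counts in WT against 6268, 6288 and 5982 in Pbrm1 cKO (log2 fold change -0.64, SE 0.13, DESeq2 adjusted p = 1.34e-05). Eno1, the main enolase, had 8167, 6141 and 9015 counts in WT against 10874, 10667 and 9979 in Pbrm1 cKO and rose by 0.43 on the log2 scale (DESeq2 adjusted p = 0.00741), with 72.2% of its 50-base windows shared with other transcripts. Eno1 lost its call in 3 of the 17 alternative settings, among them without Pbrm1 cKO replicate 1 or 2 (adjusted p = 0.0645 and 0.0589). The minor enolases Eno2 and Eno3 fell by 1.66 and 1.27 on the log2 scale (DESeq2 adjusted p = 1.47e-14 and 8.86e-07), and Bpgm, which makes 2,3-bisphosphoglycerate, rose by 0.77 (adjusted p = 0.000253).

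Gapdh, often used as a reference gene, had only 419, 292 and 267 counts in WT against 431, 394 and 460 in Pbrm1 cKO. This difference did not pass the test (log2 fold change 0.39, DESeq2 adjusted p = 0.0889), and it passed in 3 of the 17 alternative settings, among them without WT replicate 1, where the log2 fold change was 0.61 (adjusted p = 0.000227). Of its 50-base windows 82.5% are also found in other annotated transcripts, and whether reads of Gapdh were lost or assigned to these was not tested.

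The regulators of glycolysis that passed the test were all higher, 7 of the 13 tested (53.8% called). Without WT replicate 1 there were 6 higher and 1 lower, and without Pbrm1 cKO replicate 1, 2 or 3 there were 5 higher and 0 lower. Txnip, which the cell makes when glucose metabolites are plentiful and which restrains glucose uptake, rose from 630, 461 and 502 counts to 1628, 1600 and 1509 (log2 fold change 1.57, SE 0.13, DESeq2 adjusted p = 2.39e-30), and its relative Arrdc4 rose by 1.11 (adjusted p = 1.67e-08). Pfkfb3, which makes the activator fructose 2,6-bisphosphate for phosphofructokinase, had 401, 407 and 528 counts in WT against 1161, 1136 and 1016 in Pbrm1 cKO (log2 fold change 1.31, DESeq2 adjusted p = 1.92e-19). Myc rose by 1.00 (adjusted p = 5.82e-13). Hif1a, the most abundant of the list per kilobase, had 11168, 13516 and 12562 counts in WT against 14874, 14654 and 13927 in Pbrm1 cKO and did not pass (log2 fold change 0.22, DESeq2 adjusted p = 0.0671), but passed in 4 of the 17 alternative settings, among them without WT replicate 2 (0.28, adjusted p = 0.0227).

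Of 15 hypoxia targets outside glycolysis 6 were higher and 2 lower (53.3% called). Ndrg1 rose by 1.17, Ddit4, an inhibitor of mTORC1, by 0.92, Vegfa, the angiogenic factor, by 0.88 and the oxygen sensor Egln1 by 0.63 on the log2 scale (DESeq2 adjusted p = 4.42e-18, 0.000291, 4.69e-08 and 1.78e-06). Adm, a vasodilator peptide, fell by 0.41 (adjusted p = 6.82e-05).

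Genes of lactate and pyruvate handling counted 1 higher and 5 lower of 19 tested, a share of 31.6% near that of all genes. There were 3 lower and 0 higher without Pbrm1 cKO replicate 2 or without replicate 3, and 3 higher and 5 lower without WT replicate 3. Dlat and Pdhx, parts of the pyruvate dehydrogenase complex, fell by 0.43 and 0.44 (DESeq2 adjusted p = 0.000517 and 0.000468), and Bsg, the chaperone of the lactate transporters, had 9836, 8870 and 7902 counts in WT against 8520, 8413 and 8297 in Pbrm1 cKO (adjusted p = 0.638). In the TCA cycle none of 16 was higher and 5 were lower (31.2% called, again near all genes), but 4 were higher and 5 lower without WT replicate 3. Those lower were the fumarase Fh1 by 0.65, the succinate dehydrogenase subunits Sdhb by 0.50 and Sdhd by 0.43, Sucla2 by 0.47 and Idh3g by 0.44 (DESeq2 adjusted p = 1.01e-06, 2.96e-07, 0.000212, 3.00e-06 and 0.000598).

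Among the branches that leave at glucose 6-phosphate, the pentose phosphate pathway had 1 gene higher and 3 lower of 8. Tkt, the transketolase, went from 7248, 6067 and 5090 counts to 2902, 2805 and 2735 (log2 fold change -1.12, SE 0.13, DESeq2 adjusted p = 3.88e-16). Pgls fell by 0.85 and Taldo1 by 0.47, whereas Rpia rose by 0.43 (adjusted p = 1.48e-08, 8.33e-06 and 0.00423). Rpia lost its call in 3 of the 17 alternative settings, among them without Pbrm1 cKO replicate 2 (adjusted p = 0.0672). Glycogen metabolism had 2 genes higher and 6 lower of 10 (80.0% called), and 5 were called without Pbrm1 cKO replicate 1 or without replicate 2. The synthase Gys1 rose by 0.52, and the branching enzyme Gbe1 and Pgm1 fell by 0.72 each, Pygb by 0.56 and Ugp2 by 0.49 (DESeq2 adjusted p = 3.26e-05, 5.15e-06, 0.000597, 0.000356 and 0.000165). Pgm1 fell by 0.47 without WT replicate 1 and remained past the threshold.

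The serine and hexosamine branches had 2 genes higher and 4 lower of 10 (60.0% called), with 3 called without Pbrm1 cKO replicate 1 and 2 without Pbrm1 cKO replicate 2. Phgdh, the first enzyme of serine synthesis, fell by 1.01 (DESeq2 adjusted p = 6.51e-12), and the glutamine-fructose-6-phosphate transaminases Gfpt1 and Gfpt2, which open the hexosamine pathway, rose by 0.55 and 0.57 (adjusted p = 0.0117 and 0.0026). Gfpt1 lost its call in 5 of the 17 alternative settings, among them without WT replicate 2 or Pbrm1 cKO replicate 1 or 2 (adjusted p = 0.0651 to 0.0981), whereas without WT replicate 3 its log2 fold change was 0.84. Gfpt2 lost its call in 2, among them without Pbrm1 cKO replicate 2 (adjusted p = 0.0554). Pgm3 fell by 0.42 (adjusted p = 0.00098), and Psat1 had 9603, 9302 and 11019 counts in WT against 8809, 9397 and 9447 in Pbrm1 cKO (adjusted p = 0.418). In gluconeogenesis 2 of 6 genes were tested and none passed. Pck2 had 892, 478 and 458 counts in WT against 563, 542 and 524 in Pbrm1 cKO (adjusted p = 0.646).

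**Figure D4:**
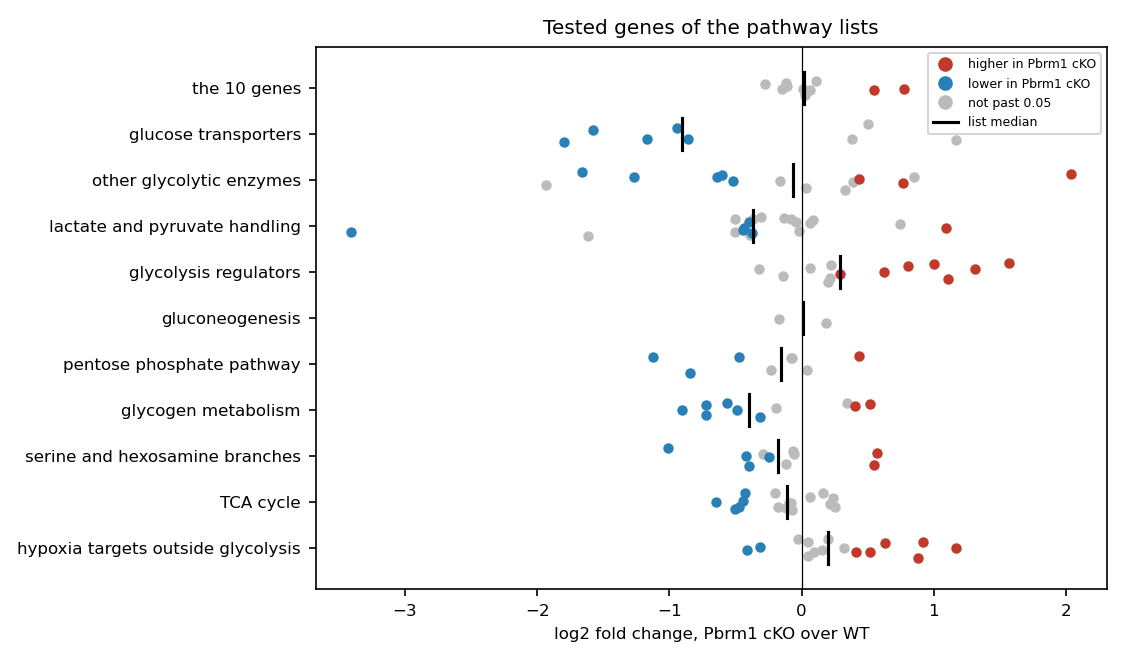
Log2 fold change of Pbrm1 cKO over WT (horizontal axis) for each tested gene of the 10 members and of the 10 other lists, one row a list, with the list median as a black bar. Red and blue points passed the DESeq2 test at 0.05 as higher or lower, and the median of the members lies at 0.02 beside -0.90 for the other glucose transporters.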

How the data were processed

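RNA-Seq counts of 6 libraries, 3 WT and 3 Pbrm1 cKO, were used as deposited. The authors trimmed reads with cutadapt, mapped them with HISAT2 to GRCm38.p5 and made whole-number read counts per gene with featureCounts 1.6.4, counting by strand. The labels describe a total RNA kit with depletion of unwanted transcripts, and the methods describe poly(A) selection with another kit, which was not settled here. The members and gene lists were chosen with earlier results of these data known.

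The counts were tested in R 4.3.3 with DESeq2 1.42.0 (Wald test, median-of-ratios size factors, independent filtering, threshold 0.05), after tests on simulated data. The authors also used DESeq2, in an earlier version and with other limits (fold above 1.5, p under 0.01, adjusted p under 0.1). An edgeR 4.0.16 quasi-likelihood fit and a limma 3.58.1 fit were among 17 alternatives. Beside the members, Pbrm1 and Gapdh, genes were named by rule: paralogues with a mean count of at least 50, up to 4 called genes of largest change and the most abundant gene per length in each metabolic list, and the 2 most abundant genes of a marker list. Genes named outside it were chosen after their values were seen. Shared windows are 50-base stretches of the principal transcript found in other GENCODE M21 transcripts. Promoter windows are from RefSeq, 250 bases upstream.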

Additional observations from a re-analysis of the deposited data

How the results depend on the processing

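Under all 17 alternatives Hk2 kept its direction and its call, with log2 fold changes of 0.71 to 0.91, and Hk1 kept its direction at 0.44 to 0.61 but not its call under the study's own limits (fold above 1.5, p under 0.01, adjusted p under 0.1), which left 1 member called. Of all genes tested 17.8% were called at these limits. Pbrm1 ran from -1.87 to -1.66. The count of members called ran from 2 to 4 with 1 library left out, 4 being without WT replicate 1 (Hk1, Hk2, Pfkl and Ldha). The median of the members stayed between -0.07 and 0.10.

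Signs near 0 turned. Without single libraries, Slc2a1 ran from -0.066 to 0.112 (-0.023 without Pbrm1 cKO replicate 1 and -0.066 without WT replicate 3), Pfkl from -0.054 to 0.284 (-0.033 without WT replicate 2 and -0.054 without WT replicate 3) and Pfkp from -0.037 to 0.094 (-0.012, -0.028 and -0.037 without Pbrm1 cKO replicate 1, WT replicate 2 and WT replicate 3). Pkm ran from -0.185 to 0.019, Bsg from -0.157 to 0.003 and Pck2 from -0.34 to 0.213, each positive without WT replicate 1. With the gene length trend removed Pfkl was -0.012 and Pfkp -0.153, and after thinning to the shallowest library Pfkp was -0.006. The cause was not tested.

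Counts over the other lists moved with fewer libraries or stricter limits. Under the study's limits 2 lactate and pyruvate genes, 2 pentose phosphate, 2 glycogen, 1 serine and hexosamine, 1 TCA cycle and 4 hypoxia genes were called. The share called over all genes tested was 17.8% at these limits, beside 31.1% in the main fit. With 1 library left out the counts ran from 3 to 8 for lactate and pyruvate, 5 to 8 for glycogen, 2 to 6 for serine and hexosamine and 5 to 9 for the TCA cycle, 9 (4 higher and 5 lower) being without WT replicate 3. Of all genes tested 24.0% (without Pbrm1 cKO replicate 2) to 34.2% (without WT replicate 3) were called in these fits. The regulators, 7 higher and none lower, were 6 higher and 1 lower without WT replicate 1. They were 5 higher and none lower without Pbrm1 cKO replicate 1, 2 or 3. Of 1173 settings of the 69 named genes 1090 kept direction and call.

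With a replicate block 2 members, Hk1 (0.55) and Hk2 (0.79), stayed called, 3 lactate and pyruvate genes and 5 glycogen genes were called, and calls over all genes went from 5432 to 3970. Libraries with the same number did not deviate together (r = 0.11, -0.05 and 0.00), so they were not treated as pairs. Depth does not limit the members, the least of which had 1069 reads in a library. Genes with few reads, such as Hkdc1 and Pdk2, are limited by it.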

Other observations

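Copies of the glycolytic genes were counted apart from the genes themselves. Gm13394, a processed pseudogene of Gapdh on chromosome 2 that carries 65.7% of its 50-base windows, had 1024, 1145 and 944 reads in WT against 0, 2 and 0 in Pbrm1 cKO. Gm11814, a processed pseudogene of Ldha on chromosome 4, had 322, 134 and 140 reads in WT against 37, 67 and 49 in Pbrm1 cKO (log2 fold change -2.24, SE 0.34, DESeq2 adjusted p = 8.30e-10), while Ldha itself did not pass the test. Aldoart1, a copy of Aldoa on chromosome 4, had 281, 267 and 228 reads in WT against 227, 279 and 247 in Pbrm1 cKO (adjusted p = 0.106). These genes were chosen after their values were seen, and whether their reads come from the copy or from the parent gene was not tested.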
